A study of Mus musculus with 23 samples.

Results

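The unexposed controls of 2 odor experiments on mouse olfactory epithelium are described here: 5 control libraries of an acetophenone experiment and 4 control libraries of a TMT experiment, 9 of the 23 libraries in the series. They were chosen by their labels alone, as the libraries named No_litter1 to No_litter5 in the acetophenone experiment and No_litter1 to No_litter4 in the TMT experiment. All came from C57BL/6 mice on postnatal day 21 that received the control in place of an odor for 1 h, and carried no transgene that the labels name. Acetophenone is an aromatic ketone with a floral smell, and TMT is trimethylthiazoline, a compound of fox secretions. The control exposure itself is not described further, and nothing says how many mice went into a library. Below, A1 to A5 are the acetophenone-experiment controls of litters 1 to 5, and T1 to T4 are the TMT-experiment controls of litters 1 to 4. The litter numbers start again in each experiment, so A1 and T1 are not known to share a litter.

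RNA was pulled down from homogenised epithelium with an antibody against the phosphorylated form of ribosomal protein S6, called pS6, and sequenced. S6 is a protein of the small ribosomal subunit that is phosphorylated when a neuron fires, so the pull-down favours ribosomes of recently active cells. Each mature olfactory sensory neuron expresses 1 odorant receptor out of a very large family (1102 symbols in the files), and receptor genes are therefore read from small fractions of the neurons. Receptor binding activates the G protein Golf (Gnal), adenylyl cyclase 3 (Adcy3), the cyclic nucleotide-gated channel (Cnga2, Cnga4, Cngb1) and a calcium-gated chloride channel (Ano2). Supporting sustentacular cells, Bowman's glands and basal stem cells surround the neurons, and the glands secrete odorant-binding proteins into the mucus. In unexposed mice the pull-down shows its own baseline, against which an odor response is read.

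The titles open with letter codes that are the labels' only sign of how the libraries were grouped in handling: YJMi for A1, YJ for A2 and A3, YJA for A4, A5 and T1, and YJG for T2, T3 and T4. YJA is the only code series with controls of both experiments, so for the other libraries the experiment and the code series cannot be told apart. Unique counts, which are reads that align to 1 place, summed to between 2389806 and 4151769 in the acetophenone controls and between 4069851 and 7609265 in the TMT controls. Spearman correlations of CPM (counts scaled to library size with edgeR's TMM factors) over genes were 0.687 to 0.939 among the acetophenone controls and 0.878 to 0.919 among the TMT controls. A3 stood apart, with correlations of 0.687 to 0.82 to the other acetophenone controls and 0.464 to 0.634 to the TMT controls. T1 correlated with A4 and A5 (0.881 to 0.895) about as much as with T2, T3 and T4 (0.878 to 0.91).

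The sequences of 4 of the 12 most abundant receptors are shown because the differences between the control sets ran with base composition. They are the 2 with the lowest and the 2 with the highest GC content of the transcript. Each line gives the first 150 bases of the coding sequence from the start codon, 5′ to 3′ on the strand of the gene, read from GENCODE M21 transcripts on GRCm38 (the mm10 build), with G and C in capitals.
Olfr309 (chr7:86306962-86307111, minus strand): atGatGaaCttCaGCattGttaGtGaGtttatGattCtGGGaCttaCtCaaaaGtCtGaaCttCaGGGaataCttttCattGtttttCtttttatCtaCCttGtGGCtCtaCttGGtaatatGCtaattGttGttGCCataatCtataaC
Olfr1018 (chr2:85822973-85823122, plus strand): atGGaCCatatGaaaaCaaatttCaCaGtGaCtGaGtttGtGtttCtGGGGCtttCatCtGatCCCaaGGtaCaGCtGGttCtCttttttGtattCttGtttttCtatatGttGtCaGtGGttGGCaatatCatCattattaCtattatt
Olfr1349 (chr7:6515278-6515427, minus strand): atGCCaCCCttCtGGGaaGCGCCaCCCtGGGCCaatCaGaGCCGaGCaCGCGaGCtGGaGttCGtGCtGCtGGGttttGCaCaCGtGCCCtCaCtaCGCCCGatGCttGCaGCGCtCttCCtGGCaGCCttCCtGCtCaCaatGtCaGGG
Olfr222 (chr11:59571589-59571738, minus strand): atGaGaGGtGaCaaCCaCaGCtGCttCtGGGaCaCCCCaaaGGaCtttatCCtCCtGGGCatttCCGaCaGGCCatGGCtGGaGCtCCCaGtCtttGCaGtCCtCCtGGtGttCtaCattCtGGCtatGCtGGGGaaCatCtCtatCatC
In these stretches G and C made up 33.3% of the bases of Olfr309, 34.7% of Olfr1018, 62.7% of Olfr1349 and 53.3% of Olfr222. Over their whole transcripts the GC content was 34.1%, 36.8%, 45.4% and 51.1%. Odorant receptors are poor in GC as a family: the median of the coding sequences was 43.9% over the 1090 receptors with a reference, of which 1069 have their coding sequence in 1 exon. The median GC of the whole transcript was 39% in receptors and 49% in all genes with a reference.

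The most abundant transcripts of the baseline were secreted proteins of glands rather than neuronal genes. Ranked by CPM per kilobase of transcript over the 9 controls, the first 7 were Obp2a, Lcn11, Vmo1, Obp2b, Scgb1c1, Lcn3 and Bpifa1, which encode lipocalin odorant carriers (Obp2a, Obp2b, Lcn3, Lcn11) and other secreted proteins of nasal mucus. Obp2a, the highest, averaged 36651 CPM per kilobase, and Lcn11 averaged 23494. Also among the top 20 were Obp1a and Bpifb3, further secreted gland proteins, and Cbr2 and Cyp2f2, enzymes of sustentacular cells that process odorants and foreign compounds. Others among them were the housekeeping genes Rpl8, Akr1a1, Gpx1, Gnb2l1, Cox4i1, Tubb5 and Atp5g3 and the red-cell gene Hbb-bs. The 17 genes of Bowman and nasal glands on the list took 5.89 to 10.8% of the counts in the acetophenone controls and 6.25 to 15.1% in the TMT controls. The 10 most abundant genes of each library took 8.77 to 17.2% of its counts.

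Other cell types of the tissue took smaller shares. Sustentacular cell genes took 1.88 to 2.1% of the counts in the acetophenone controls and 1.35 to 1.63% in the TMT controls, and these ranges did not overlap. Genes of mature olfactory neurons, without the receptors, took 0.642 to 1.02% and 0.212 to 0.474%, and genes of immature neurons 0.39 to 0.927% and 0.637 to 0.803%. Fibroblast and matrix genes took 1.5 to 2.91% and 0.629 to 1.13%. Respiratory epithelium took 1.32 to 1.94% and 1.12 to 1.3%, without overlap, red cells 0.133 to 0.718% and 0.628 to 1.31%, and immune cells 0.0691 to 0.109% and 0.0632 to 0.0854%. The gap for respiratory epithelium was narrow. Of its 14 tested genes, edgeR called 1 higher and 1 lower in the TMT controls, and their median log2 difference was 0.09. Over all genes tested 5.68% were higher and 8.76% lower. Skeletal muscle, at 0.003 to 0.0094% in all 9 controls, had the smallest share of the lists plotted, and Scgb1a1 (club cells of the airway) and Chat (the enzyme that makes acetylcholine) had no count in any control. In such bulk samples, fewer cells of a type and less RNA per cell cannot be told apart.

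**Figure D1:**
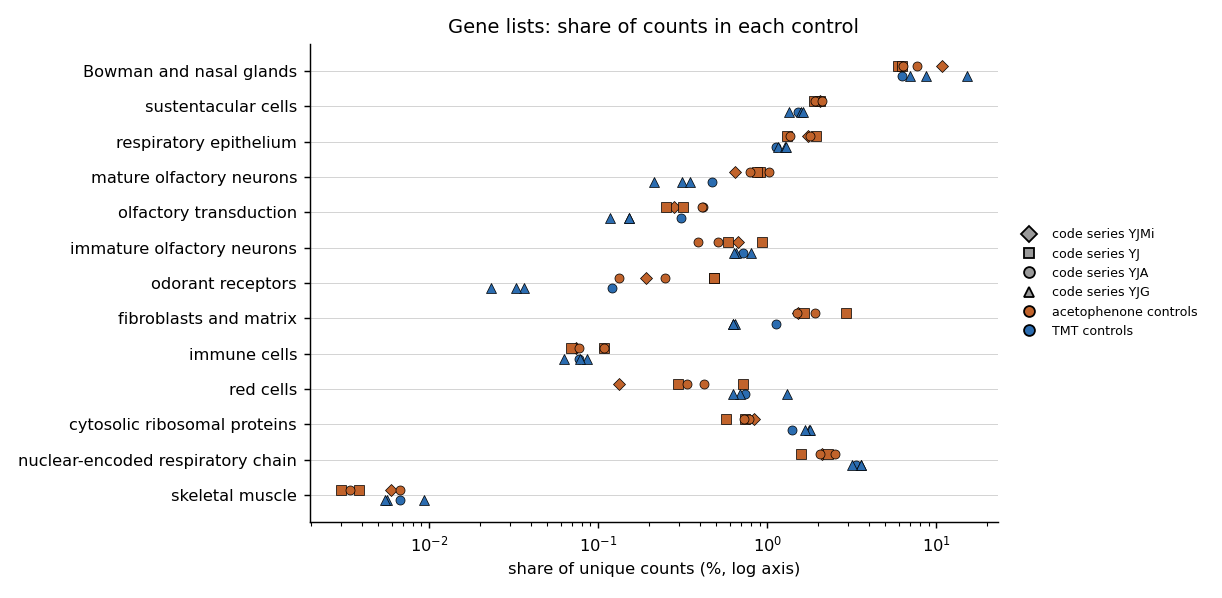
Share of unique counts (percent, log axis) taken by 13 gene lists in each of the 9 controls. Orange points are acetophenone controls, blue points TMT controls and the shape gives the title code series. Gland genes took the largest share in every control, and the ranges of the sets did not overlap for mature neurons, odorant receptors, sustentacular cells, respiratory epithelium, fibroblasts, ribosomal proteins or the respiratory chain.

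The labelled tissue was checked with 4 markers, and all were present in every control. Obp2a, the lipocalin, was at 35743, 9700, 7108, 22146 and 13758 CPM in A1 to A5 and at 13274, 39593, 30698 and 73393 CPM in T1 to T4. Bpifb3, a gland protein of the bactericidal protein family, was at 5082, 10909, 4251, 4621 and 5205 CPM in A1 to A5 and at 4565, 3182, 3425 and 3055 CPM in T1 to T4. The sets overlapped for both, and neither passed the test between the sets (edgeR adjusted p = 0.161 and 0.125). Bpifb3 did pass in a fit that corrects every library for the GC content and length of the genes, with a log2 difference of -1.50 and an adjusted p of 0.0196 in edgeR.

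Omp, the olfactory marker protein that defines mature neurons, spread widely among the acetophenone controls and did not pass the test between the sets. It was at 882 CPM in A1, 114 and 216 in A2 and A3, and 1666 and 1963 in A4 and A5, against 338, 470.5, 454 and 249 in T1 to T4. The 2 libraries of code series YJ were the lowest of all 9 and the 2 acetophenone controls of YJA the highest. Between the sets the log2 difference was -1.36 ± 0.71 (standard error), with an adjusted p of 0.207 in edgeR's quasi-likelihood test. Within YJA, a fit of all 23 libraries in which experiment, odor and code series add up put Omp lower in T1 by 2.25 ± 0.32 on the log2 scale (edgeR adjusted p = 0.00462). That fit, here and below, takes libraries of the same litter as independent, and the TMT libraries of YJA all come from the litter of T1. Omp lies on chromosome 7 (98143359 to 98145502) and its transcript has a GC content of 57%.

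S100a5, a calcium-binding protein of mature neurons whose level follows their activity, had no overlap between the sets. It was at 1088, 2758, 1128, 1670 and 215 CPM in A1 to A5 and at 71.1, 17.0, 26.5 and 20.7 CPM in T1 to T4. The lowest acetophenone control, A5, stood above the highest TMT control, T1, and T1 stood above the other TMT controls. The means were 1372 ± 934 (SD, n = 5) and 33.8 ± 25.1 (SD, n = 4) CPM, and edgeR put the gene lower in the TMT controls by a log2 difference of -5.35 ± 0.77 (adjusted p = 0.00449), or 40.7-fold. With GC and length corrected the difference was -5.64 (edgeR adjusted p = 0.00161), and with any 1 library left out it lay between -5.99 and -4.94. The gene is on chromosome 3 (90608523 to 90611780, plus strand) with a transcript GC content of 48.5%, below the median of 50.6% over genes tested. In the fit of all 23 libraries, which draws on the odor libraries too, the difference was -2.46 ± 1.21 within YJA (edgeR adjusted p = 0.349) and -3.43 ± 0.74 between YJG and YJA (edgeR adjusted p = 0.0187).

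**Figure D2:**
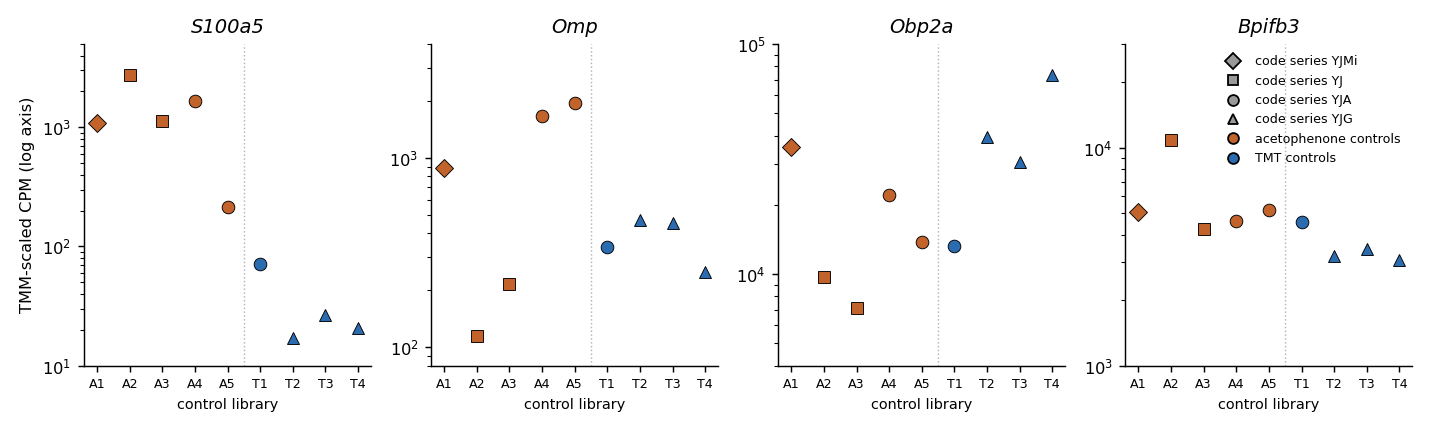
TMM-scaled CPM (log axes, each with its own range) of the 4 markers in each control library, with colour for the experiment and shape for the title code series. S100a5 runs from 215 to 2758 CPM in the acetophenone controls and from 17.0 to 71.1 in the TMT controls, whereas the sets overlap for Omp, Obp2a and Bpifb3.

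Odorant receptor transcripts made up a small part of every control and less of the TMT controls. Their share of unique counts was 0.192, 0.484, 0.485, 0.248 and 0.134% in A1 to A5 and 0.121, 0.0232, 0.0362 and 0.0325% in T1 to T4. The means were 0.309 ± 0.166% (SD, n = 5) and 0.0532 ± 0.0456% (SD, n = 4), a ratio of 5.8, with a 2-sided exact permutation p of 0.0238 (also 0.0238 after Benjamini-Hochberg adjustment over 3 such tests). The smallest p that 5 against 4 libraries allow is 0.00794. The 95% Wilson intervals, which cover counting error only, were narrow beside these differences (0.13 to 0.138% for A5 and 0.118 to 0.125% for T1). By code series the share was 0.484 to 0.485% in YJ, 0.192% in YJMi, 0.134 to 0.248% in the acetophenone controls of YJA, 0.121% in T1 and 0.0232 to 0.0362% in YJG. Within YJA the difference in odorant receptor share of counts was -0.0699 percentage points for 1 library against 2 (exact permutation p = 0.667, where the smallest this split allows is 0.333), and leaving out any 1 TMT control gave an exact permutation p of 0.0536.

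Fewer different receptors were seen in the TMT controls at equal total depth. Thinning equalised total counts and not receptor counts, so this number depends on the receptor share above and is not a separate measure of diversity. With every library thinned to 2389806 counts, 548, 706, 771, 638 and 424 receptors had at least 1 count in A1 to A5, and 301, 124, 133 and 135 in T1 to T4. The means were 617 ± 136 and 173 ± 85.3 (SD, n = 5 and 4), with a 2-sided exact permutation p of 0.00794 (adjusted 0.0119), the smallest the design allows. All genes detected at this depth went the same way, from a mean of 15602 to 13937 (exact permutation p = 0.00794, adjusted 0.0119), a far smaller ratio of 1.12. Within YJA the numbers were 638 and 424 against 301.

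Over all 9 controls 963 of the 1102 receptors had a count somewhere, 61 had one in every control and 139 in none. Counts in all 5 acetophenone controls were found for 292 receptors, and in all 4 TMT controls for 63, of which 61 are the ones in all 9. There were 43 receptors with counts in all 5 acetophenone controls and in no TMT control, and 0 with the reverse pattern. A zero here allows up to 3 counts of the library, and 56 receptors share exon sequence with another annotated gene, such as Olfr56 with Ifi47, so their counts can belong to either.

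**Figure D3:**
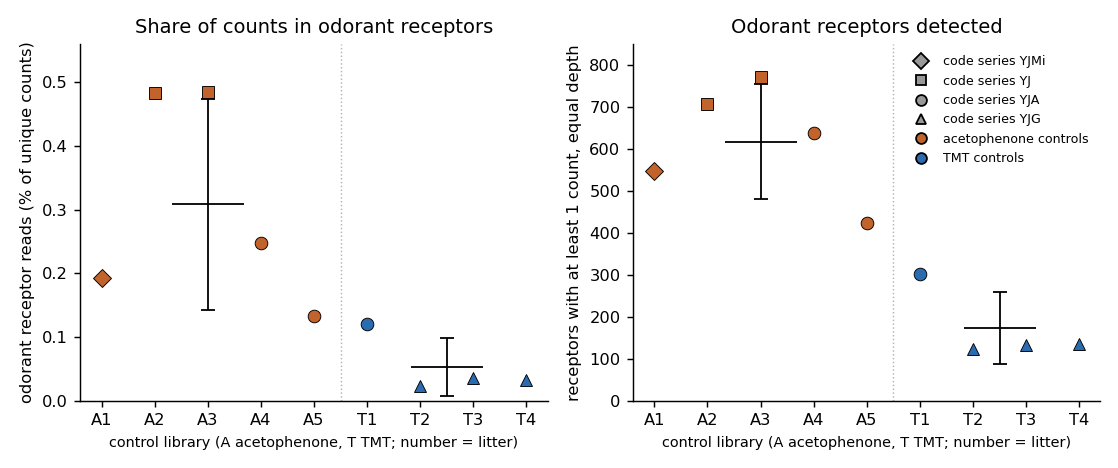
Odorant receptor share of unique counts (left, percent) and number of receptors with at least 1 count after thinning to 2389806 counts (right) in each control. Bars are mean and SD of each set, colour is the experiment and shape the title code series. T1, the TMT control of code series YJA, lies between the acetophenone controls and the YJG controls on both axes.

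Counts were spread over fewer receptors in the TMT controls. In A1 to A5, 67, 78, 83, 54 and 40 receptors held 50% of the receptor counts, against 33, 14, 10 and 12 in T1 to T4. The 10 most abundant receptors of each library took 14.98 to 25.5% of its receptor counts in the acetophenone controls, 25.7% in T1 and 44.8 to 50.2% in the YJG controls. Class I receptors, the fish-like class whose 124 genes lie in 1 cluster on chromosome 7, took 8.43 to 14.2% and 7.21 to 15.6% of the receptor counts, so the class balance overlapped. Of chromosomes 2, 7, 9 and 11, the ranges were apart for chromosome 9 alone. Its receptors took 1.98 to 5.58% of receptor counts in the acetophenone controls and 0.202 to 0.944% in the TMT controls. Receptors on chromosome 11 took 6.31 to 18.9% and 16.0 to 40.1%. Those on chromosome 2 took 14.3 to 26.2% and 5.1 to 16.55%, and those on chromosome 7 took 25.8 to 31.8% and 20.1 to 33.95%.

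The 12 receptors with the highest mean CPM over both sets were Olfr140, Olfr222, Olfr711, Olfr309, Olfr15, Olfr1364, Olfr1427, Olfr1348, Olfr1349, Olfr449, Olfr669 and Olfr1018. Olfr669 is a class I receptor and the others are class II. Olfr140, the most abundant, was at 80.6, 172, 113, 146 and 81.5 CPM in A1 to A5 and at 65.0, 1.71, 48.0 and 48.4 CPM in T1 to T4. Every TMT control was below every acetophenone control, but T2 lay far below the other 3 and the gene did not pass the test (log2 difference -1.54 ± 0.69, edgeR adjusted p = 0.149). Olfr222, the receptor with 51.1% GC, was at 24.8, 65.7, 32.3, 87.4 and 26.4 CPM in A1 to A5 and at 33.5, 45.2, 63.6 and 49.9 CPM in T1 to T4. Its ranges overlapped throughout, and it was the most abundant receptor in T2, T3 and T4.

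Other abundant receptors were nearly missing from the TMT controls. Olfr711 was at 20.9, 107, 86.0, 66.8 and 3.44 CPM in A1 to A5 and at 0.241, 0, 0.43 and 0.931 CPM in T1 to T4, which are 1, 0, 3 and 5 counts. Summed over libraries, its share of the counts was 136 times as high in the acetophenone controls (95% counting interval 71.3 to 298), and edgeR gave a log2 difference of -7.04 ± 1.11 (adjusted p = 0.00643). Olfr309, the receptor with 34.1% GC, was at 38.7, 137, 59.0, 23.2 and 1.72 CPM in A1 to A5 and had 2, 1, 0 and 0 counts in T1 to T4 (edgeR adjusted p = 0.00716). In both, A5 was the lowest acetophenone control. Olfr1018 had 35, 241, 107, 88 and 5 counts in A1 to A5 and 4, 0, 6 and 0 in T1 to T4 (edgeR adjusted p = 0.0143). Olfr15, which was detected in every control, fell to 19.5, 4.97, 9.88 and 9.49 CPM in T1 to T4 from 23.9 to 80.2 CPM in A1 to A5 (log2 difference -1.82 ± 0.50, edgeR adjusted p = 0.0357, and 0.30 with GC and length corrected).

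T1 did not sit in the same place for every receptor. For Olfr1364 (28.0 to 50.3 CPM in A1 to A5) T1 had 29.9 CPM and T2 to T4 had 0, 1.72 and 7.07. For Olfr669 (9.31 to 50.3 CPM) T1 had 23.1 CPM and T2 to T4 had 0.171, 0.143 and 0.931. For Olfr1348 (20.7 to 54.4 CPM) T1 had 28.9 CPM and T2 to T4 had 2.74, 12.3 and 10.4. In these receptors T1 lay within the range of the acetophenone controls and the YJG controls lay below it, and none of the 3 passed the test between the sets. For Olfr711, Olfr309 and Olfr1018, T1 lay with the YJG controls.

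**Figure D4:**
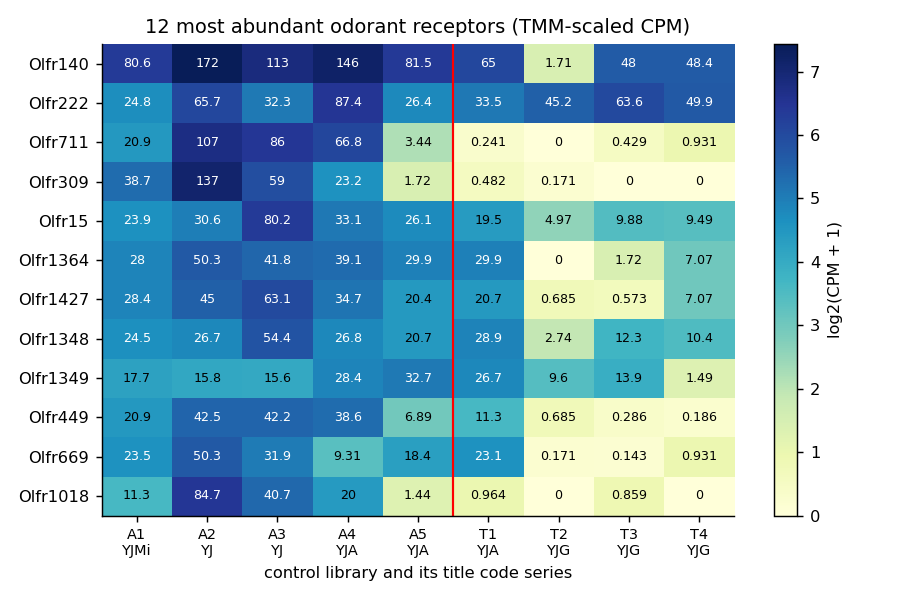
TMM-scaled CPM of the 12 most abundant odorant receptors (rows) in the 9 controls (columns, with the title code series), coloured by log2(CPM + 1). Left of the red line are acetophenone controls and right of it TMT controls. Olfr222 overlaps between the sets, at 24.8 to 87.4 CPM over the 9 controls, whereas Olfr711, Olfr309 and Olfr1018 are at or below 0.964 CPM in every TMT control.

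Between the sets, edgeR's quasi-likelihood test (Benjamini-Hochberg adjusted p under 0.05) called 1779 of 12315 genes, or 14.4%: 700 higher (5.68%) and 1079 lower (8.76%) in the TMT controls. With libraries scaled to their total counts, the split was 409 higher and 1250 lower. That scaling moved the median log2 difference of all genes from -0.029 to -0.22, so it lowers every value by about that much. Of the odorant receptors, 176 had enough counts to be tested: 0 were higher, 63 were lower and 113 did not pass. At an unadjusted p under 0.05, 0 were higher and 96 lower in edgeR, and DESeq2 called 0 higher and 91 lower. Their median log2 difference was -2.40, beside -0.03 over all genes tested, and 170 of the 176 were negative. A receptor could enter the test on counts in the acetophenone controls alone, so these figures describe the receptors tested and not the family. The 6 lowest by p were Olfr1340 (1 count in the 4 TMT controls against 213 in the 5 acetophenone controls), Olfr6, Olfr1232, Olfr578, Olfr711 and Olfr1229. The number of receptors lower depended on single libraries. It was 158 of 233 tested without T1, 43 of 242 without T2, 41 of 243 without T3 and 38 of 242 without T4. Over all genes tested, 1619 of 12571, 535 of 12593, 447 of 12577 and 441 of 12611 were lower in these fits. Without A1, A2, A3, A4 or A5 the number of receptors lower was 13 of 121, 16 of 112, 14 of 106, 11 of 105 and 58 of 160, so that fewer receptors were also tested. The genes lower in these fits numbered 627 of 11996, 830 of 12022, 769 of 11965, 659 of 11691 and 871 of 12014. With all 23 libraries in the fit, 8.27% of 13831 genes were higher and 12.5% lower, and 205 of 431 receptors tested were lower.

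The size of the difference ran with GC content and transcript length. Over the 12205 genes tested with a reference, Spearman's correlation across genes between the log2 difference and GC content was 0.49, and with length it was -0.39. Genes are not independent replicates, and those values share libraries and depth. The genes higher in the TMT controls had a median GC of 53.5% and a median length of 1386 bases, and the genes lower had 43.5% and 3694 bases. Receptors went in the same direction with GC: among 175 tested receptors this correlation with GC was 0.71. From the GC-poorest to the GC-richest tercile (59, 58 and 58 receptors) the median log2 difference was -5.33, -2.54 and -1.29, with 38, 19 and 5 called lower. Over all genes tested 8.76% were lower, and the GC-richest tercile lay near that share. At equal GC the tested receptors lay below all genes tested. Their median was -4.31 beside -1.87 at 35 to 40% GC, -1.96 beside -0.98 at 40 to 45%, and -0.99 beside -0.33 at 45 to 50%. Receptors could pass the filter on the acetophenone controls alone, and they were not matched to other genes for abundance. These medians and the corrected one below therefore describe the receptors tested and not the family. With GC and length corrected in each library, 572 genes were higher (4.64%) and 702 lower (5.7%), or 10.3% called. In that fit 35 receptors were lower, and the receptor median was -1.27 beside -0.20 over all genes. The correlation with GC was still 0.39 among the receptors after the correction and -0.15 over all genes, and the part of base composition in what was left was not tested.

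Missing genes lay at opposite ends of GC content in different libraries. Of 486 tested genes under 40% GC, 0 to 2.47% had no count in A1 to A5, against 11.7, 16.3, 14.0 and 16.5% in T1 to T4. Of 631 tested genes over 60% GC, 9.03% and 21.9% had no count in A2 and A3 of code series YJ, against at most 2.06% in the other 7 controls. The genes without a count in both YJ controls but with at least 20 CPM in each of the other 7 were Pias4, Ier2, H2afx, Junb, Tmem259, Pitx1 and Jund, all with 60.8 to 67.2% GC. Junb, an immediate early transcription factor, was at 85.1, 87.0 and 91.5 CPM in A1, A4 and A5, at 0 in A2 and A3, and at 58.8 to 151 CPM in T1 to T4. Jund was at 0 in the same 2 libraries and at 69.0 to 273 CPM in the others. These 7 genes were chosen after their values were seen.

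**Figure D5:**
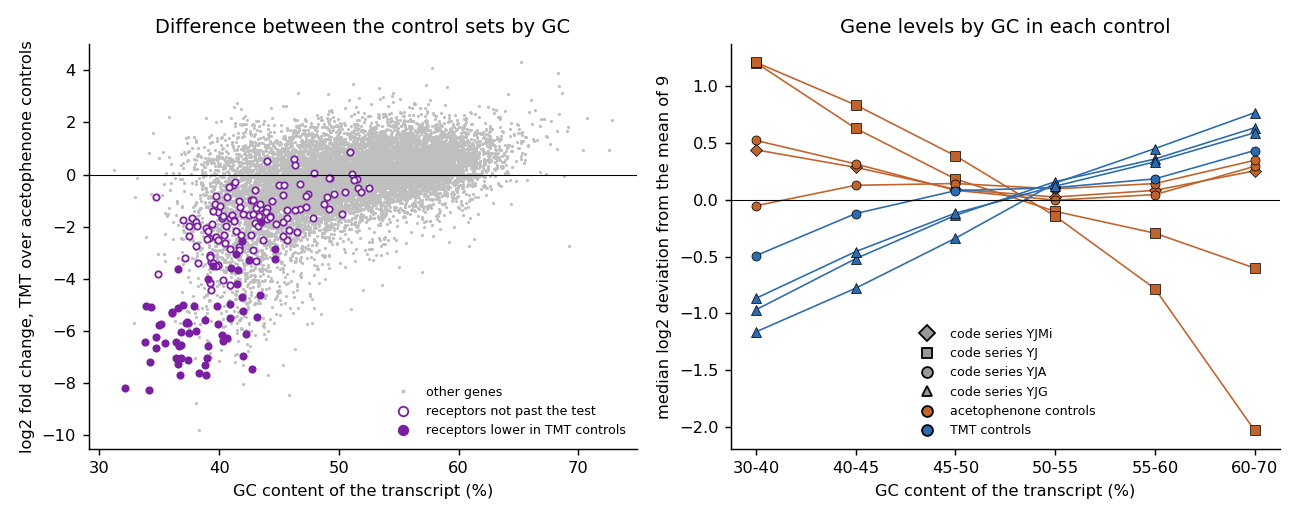
Left: log2 difference between TMT and acetophenone controls against the GC content of the transcript for each gene tested, with odorant receptors in purple (filled where lower in the TMT controls at an edgeR adjusted p under 0.05). Right: median log2 deviation of genes from their mean over the 9 controls, by GC content, for each library. The GC-poorest genes run from 1.21 in A2 and A3 to -1.16 in T2, and the GC-richest from -2.03 in A3 to 0.77 in T2.

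Among all genes tested 8.76% were lower in the TMT controls, and among signalling genes of mature neurons the counts were as follows. Of 13 tested genes of mature neurons, 3 were lower (S100a5, Acsm4 and Umodl1) and 10 did not pass, with a median log2 difference of -1.36. Of 15 tested genes of olfactory transduction, 4 were lower (Pde1c, Slc12a2, Cnga4 and Ric8b) and 11 did not pass, with a median of -0.93. Pde1c, a calcium-activated phosphodiesterase of the cilia that breaks down cyclic AMP, had the smallest p of all genes. It was at 94.8, 103, 144, 178 and 123 CPM in A1 to A5 and at 9.64, 10.1, 10.02 and 5.03 CPM in T1 to T4 (chromosome 6, 56069804 to 56569103). T1 lay with the other TMT controls, and the log2 difference was -3.88 ± 0.34 (edgeR adjusted p = 0.00201), -2.49 with GC and length corrected (edgeR adjusted p = 0.00381) and -3.58 ± 0.62 within YJA in the fit of all 23 libraries (edgeR adjusted p = 0.0186).

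Slc12a2, the chloride importer that loads the cilia, was at 20.04 to 85.6 CPM in A1 to A5 and at 13.7, 1.71, 1.57 and 3.35 CPM in T1 to T4 (log2 difference -3.15, edgeR adjusted p = 0.02). Cnga4, a channel subunit, was at 129 to 261 CPM and at 115, 52.3, 95.8 and 59.2 CPM (-1.25, edgeR adjusted p = 0.0268). Ric8b, which assists Golf, passed narrowly (-1.33, edgeR adjusted p = 0.0499) and not after correction for GC and length (adjusted p = 0.207). The pore subunit Cnga2, at 415 to 679 CPM against 362, 17.8, 77.5 and 108.5 CPM, did not pass (edgeR adjusted p = 0.0785), although its ranges did not overlap. Over all genes tested, 10.7% lay below in every TMT control and 11.1% above. None of the 12 tested transcription factors of olfactory neurons passed in edgeR (1 lower at an unadjusted p under 0.05, and 1 lower in DESeq2), and their median log2 difference was 0.01.

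For genes that follow neuronal activity, the counts are set beside 8.76% lower and 5.68% higher over all genes tested. Of 8 tested genes whose level in olfactory neurons follows activity, S100a5 and Cntn4 were lower and 6 did not pass. Cntn4, an axonal adhesion protein, was at 60.6 to 150 CPM in A1 to A5 and at 32.5, 3.43, 6.01 and 10.1 CPM in T1 to T4 (log2 difference -2.87, edgeR adjusted p = 0.016, and 0.0733 with GC and length corrected). None of the 12 tested immediate early genes passed in edgeR (0 at an unadjusted p under 0.05, and 0 in DESeq2), and their median was 1.07, but -0.26 within YJA in the fit of all 23 libraries. Among them Junb and Jund had no count in A2 and A3, as above. Fos, the most used marker of recent firing, was at 18.4, 11.6, 0.761, 29.5 and 20.1 CPM in A1 to A5 and at 16.6, 41.1, 39.8 and 65.2 CPM in T1 to T4, with overlapping ranges. Of the trace amine receptors, a separate family of amine detectors, Taar6 had enough counts for a test: 22, 12, 6, 13 and 14 counts in A1 to A5 and 1, 0, 0 and 0 in T1 to T4 (edgeR adjusted p = 0.00853).

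For genes of immature neurons, progenitors and cell division, the counts called are set beside the 14.4% called over all genes tested. Of 13 tested genes of immature neurons, Dpysl5, a protein of growing axons, was higher (3.86 to 9.03 CPM against 16.6 to 24.3 CPM, log2 difference 1.62, edgeR adjusted p = 0.0193, and 0.0986 with GC and length corrected), 12 did not pass and the median was 0.36. Of 9 tested progenitor genes Hes6 was higher (1.49), Tex15 was lower (-3.95) and 7 did not pass. Of 10 tested genes of cell division Tyms was higher (1.61), Mki67 was lower (-5.12) and 8 did not pass. Over all genes tested 5.68% were higher and 8.76% lower. Mki67, the standard proliferation marker, was at 36.7, 77.3, 117, 30.9 and 5.17 CPM in A1 to A5 and at 0.964, 1.54, 1.43 and 2.05 CPM in T1 to T4. The GC content was 60.3% for Hes6 and 37.4% for Tex15, and neither passed after correction for GC and length (edgeR adjusted p = 0.828 and 0.259), whereas Tyms and Mki67 did (0.0119 and 0.00618).

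The counts for gland, sustentacular and xenobiotic genes are set beside the 8.76% that were lower over all genes tested. Of 17 tested gland genes, 2 were lower (Lcn4 and Muc5b) and 15 did not pass, with a median log2 difference of 0.26. Lcn4, another lipocalin of the nasal glands, was at 2745, 1530, 1467, 1811 and 279 CPM in A1 to A5 and at 16.1, 17.1, 40.9 and 111 CPM in T1 to T4. Its log2 difference was -5.08 ± 0.81 (edgeR adjusted p = 0.00651) and -5.04 with GC and length corrected (adjusted p = 0.00294), in contrast to Obp2a and Lcn11, which did not pass. Of 14 tested sustentacular genes Ermn, Ugt2a1 and Muc2 were lower and 11 did not pass. Ugt2a1, a glucuronidating enzyme that clears odorants and shares exons with Ugt2a2, was at 1225 to 1888 CPM in A1 to A5 and at 695, 37.9, 189 and 269 CPM in T1 to T4 (log2 difference -2.35, edgeR adjusted p = 0.0319, and 0.326 with GC and length corrected). Among 21 genes of xenobiotic metabolism 5 were lower, with Aldh1a1 (-3.02) and Cyp2e1 (-2.90) the furthest, and both passed after correction (edgeR adjusted p = 0.00611 for each).

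Most connective tissue genes were lower, whereas 8.76% of all genes tested were lower and 5.68% higher. Of 11 tested fibroblast and matrix genes 7 were lower (Col1a1, Col1a2, Col3a1, Col5a2, Dcn, Fn1 and Lum) and 4 did not pass. Lum, a collagen-binding proteoglycan, was at 116, 313, 345, 135 and 34.4 CPM in A1 to A5 and at 4.09, 2.57, 3.72 and 1.86 CPM in T1 to T4 (log2 difference -5.94 ± 0.71, edgeR adjusted p = 0.00259). Col1a2, a chain of type I collagen, was at 5064 to 13092 CPM and at 3697, 1798, 2250 and 2447 CPM (-1.48, edgeR adjusted p = 0.0228). Of 13 tested immune cell genes 1 was higher, 3 were lower (Ptprc, S100a8 and S100a9) and 9 did not pass, with a median of -0.47. S100a8 and S100a9, calcium-binding proteins of neutrophils, had log2 differences of -4.15 and -5.38 (edgeR adjusted p = 0.0312 and 0.00321). Of 9 tested genes of ensheathing glia the fatty acid binding protein Fabp7 was lower (-4.14, edgeR adjusted p = 0.00449) and 8 did not pass, and the median of the list was 0.26. The complement gene C1qb of macrophages was the immune gene that was higher (1.02), but not after correction for GC and length (-0.45, edgeR adjusted p = 0.358). Haemoglobin Hba-a1 and its copy Hba-a2, whose counts cannot be separated, were higher (1.83 each), but not after that correction (edgeR adjusted p = 0.416 and 0.334). Of 45 tested genes of horizontal basal cells, microvillar cells and ionocytes, endothelium, bone and cartilage, skeletal muscle, vomeronasal neurons and necklace neurons, 0 passed in edgeR. At an unadjusted p under 0.05, 1 of them was higher and 5 lower, and DESeq2 called 1 higher and 3 lower.

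Many ribosomal and mitochondrial protein genes were higher, beside 5.68% higher and 8.76% lower over all genes tested. Of 56 tested cytosolic ribosomal protein genes 22 were higher, 0 lower and 34 did not pass, with a median log2 difference of 1.43 that fell to 0.40 with GC and length corrected. Their share of unique counts was 0.574 to 0.838% in the acetophenone controls and 1.40 to 1.80% in the TMT controls. Most ribosomal protein genes have processed pseudogenes, so unique counts understate them: Rps6 itself, the protein behind the pull-down, had at most 16 unique counts in any control and at least 5961 estimated counts when multiply aligned reads were shared out.

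Of 67 tested nuclear genes of the respiratory chain 17 were higher and 3 lower (Ndufs1, Sdha and Uqcrc2), beside 5.68% higher and 8.76% lower over all genes tested. The median of the list was 1.06, and it fell to 0.16 with GC and length corrected. Ndufb9, a complex I subunit, was at 145 to 556 CPM in A1 to A5 and at 978, 1748, 1985 and 1779 CPM in T1 to T4 (log2 difference 2.004, edgeR adjusted p = 0.0108, and 0.0717 with GC and length corrected). Ndufs1, a core subunit of the same complex, went the other way, from 256, 346, 778, 218 and 117 CPM to 4.09, 14.6, 8.88 and 15.5 CPM (-4.99 ± 0.65, edgeR adjusted p = 0.00319, and 0.00225 with GC and length corrected). The GC content of the transcript is 55.4% for Ndufb9 and 45.1% for Ndufs1.

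Beside Pde1c, the genes with the smallest p among those lower in the TMT controls were Zfp719, Dhx15, Prpf4b, Zfp869, Erap1, 2310057J18Rik, Fastkd5, Zc3h6, Eif2a, Zfp870 and Cyp3a13. The uncharacterised gene 2310057J18Rik showed the widest gap, with 1141, 313, 548, 2636 and 126 counts in A1 to A5 and 0, 0, 4 and 2 in T1 to T4, a share 1078 times as high in the acetophenone controls (95% counting interval 495 to 2938). Dhx15, an RNA helicase of splicing, was at 99.9 to 669 CPM in A1 to A5 and at 8.19 to 12.5 CPM in T1 to T4 (log2 difference -4.91, edgeR adjusted p = 0.00259). Eif2a, a translation initiation factor, was at 44.5 to 224 CPM and at 3.94 to 7.95 CPM (-4.64, edgeR adjusted p = 0.00259). In all 12 genes, Pde1c included, T1 lay with T2 to T4 and below every acetophenone control. They were picked by the p of this same comparison, which favours such genes, so their pattern does not show where T1 belongs. Over all genes tested 10.7% lay below in every TMT control. The GC contents of the 12 genes were 38.3 to 44.5%. Among the smallest p of the higher genes were those of Dtymk, Rpl14, Rpl32, Rps20, Zcrb1, Rps27l, Mrpl53, Ndufs6, Chchd7, Tcf19 and Eef1b2. Dtymk, which makes thymidine diphosphate, was at 27.0 to 75.4 CPM in A1 to A5 and at 168 to 278 CPM in T1 to T4 (log2 difference 2.08, edgeR adjusted p = 0.00643).

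Within code series YJA, where T1 can be set against A4 and A5, edgeR on the 9 controls called 0 genes. An unadjusted p under 0.05 was reached there by 265 genes with a higher and 555 with a lower value in T1. The fit of all 23 libraries, in which the odor libraries of the series share the estimate, called 73 of 13831 genes (0.528%): 34 higher (0.246%) and 39 lower (0.282%). Among them were Omp, Pde1c, Zfp869, Ric8b and Dtymk, and 0 of 431 tested receptors, whose median log2 difference was -1.49 beside -0.15 over all genes. S100a5 and 2310057J18Rik did not pass there (edgeR adjusted p = 0.349 and 0.0898). Between code series within the TMT controls, YJG against T1, the 9 controls again gave 0 calls in edgeR, while 243 genes reached an unadjusted p under 0.05 with a higher and 636 with a lower value in YJG. The fit of all 23 libraries called 445 genes (3.22%), 131 higher (0.947%) and 314 lower (2.27%), with 55 of 431 receptors lower and a receptor median of -2.66 beside -0.02. These fitted differences draw on the odor libraries of both code series and need not hold in the controls alone. In both contrasts the TMT libraries of YJA come from a single litter, that of T1, so the calls do not measure the spread between litters there. For Olfr669 (-3.20 ± 0.83, edgeR adjusted p = 0.0424) the controls went the same way, with 23.1 CPM in T1 and at most 0.931 CPM in T2 to T4. Olfr309 (-5.05 ± 1.06, edgeR adjusted p = 0.0158) and Olfr711 (-3.97 ± 1.02, edgeR adjusted p = 0.041) were also called lower in YJG by that fit, but the controls do not show it. Olfr309 had 2 counts in T1 and 1, 0 and 0 in T2 to T4, and Olfr711 had 1 count in T1 and 0, 3 and 5 in T2 to T4.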

How the data were processed

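RNA bound to phosphorylated S6 was measured in 9 control libraries of mouse olfactory epithelium. The cDNA was amplified and made into libraries by tagmentation, per the labels' protocols. Bowtie, bedtools and the mm10 build are named in the submitters' processing notes, and no version or annotation was found there. A file holds 23481 symbols in rows and 20 columns of numbers without names, which never fall from left to right (0 decreases). The first deposited column holds whole-number counts, read as uniquely aligned reads. The last deposited column holds estimated counts that take in multiply aligned reads; rounded to whole numbers, it served as an alternative. This reading comes from the values, and 18 columns between were not used. Unique counts were 51.2 to 71.9% of estimated counts.

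Counts were tested with edgeR 4.0.16 in R 4.3.3 (TMM, filterByExpr minimum count 10, quasi-likelihood, 2-sided, Benjamini-Hochberg over all genes tested, threshold 0.05), after a check on simulated data. Receptor share and number at equal depth were compared by exact permutation of libraries. Length, GC content and positions came from GENCODE M21 (GRCm38), matched by symbol for 98.3% of genes; splines of both gave the corrected fit. Alternatives included DESeq2 1.42.0, other scalings and filters, and leaving out each library. Genes named are the 20 most abundant per kilobase, the 12 most abundant receptors, the 12 smallest p in each direction, the 6 receptors with the smallest p, 4 markers, and examples of lists. The members and lists were chosen with earlier results of these data known. Within each experiment the controls carry different litter numbers, so p-values between the sets rest on the spread between libraries of different litters, technical spread included. These tests take the libraries as independent and hold no term for code series. Libraries of a code series can lie close together, as with the receptor share of 0.484 to 0.485% in YJ. If the code series acts as a batch, the p-values are too small. Nothing says how many mice a library holds. Of the genes the rule names, 1 is not reported here.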

Additional observations from a re-analysis of the deposited data

Results flagged for a closer look

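In 16 of 74 groups of 4 or 5 controls (21.6%), 1 library lay further from the others than Dixon's 95% limit, which chance exceeds in about 1 in 20 groups. T1, the TMT control of code series YJA, accounted for 7 of them. It had a receptor share of 0.121% (0.0232 to 0.0362% in T2 to T4) and 301 receptors at equal depth (124 to 135). It also had 11.3 CPM of Olfr449 (0.186 to 0.685), 23.1 CPM of Olfr669 (0.143 to 0.931) and 10532 CPM of the secretoglobin Scgb1c1 (1653 to 2587). Lower in T1 than in T2 to T4 were Rpl8 (3971 against 7345 to 7931 CPM) and the peroxidase Gpx1 (4054 against 7375 to 7738 CPM). Other TMT controls that stood apart were T4 for Vmo1 (10635 against 15217 to 15751 CPM) and Obp1a (10540 against 43.6 to 976 CPM), and T3 for Hbb-bs (5824 against 2719 to 3037 CPM).

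Among the acetophenone controls, A3 stood apart in Rpl8 (459 against 2014 to 2600 CPM), Olfr15 (80.2 against 23.9 to 33.1 CPM) and Olfr1348 (54.4 against 20.7 to 26.8 CPM). A2 stood apart in Obp1a (5259 against 1000 to 1839 CPM) and Bpifb3 (10909 against 4251 to 5205 CPM), and A1 in the ribosomal scaffold gene Gnb2l1 (3310 against 2398 to 2620 CPM). Obp1a stood apart in both sets, and the lowest of all 9 controls was T1 at 43.6 CPM.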

How the results depend on the processing

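The 1779 genes called between the control sets in edgeR became 3120 in DESeq2, 2866 with all 23 libraries in the fit, 389 with the litter number as a replicate block, a fit that also leaves out A5 (1239 without A5 and with no block), and 0 without the code series YJMi and YJG, which leaves 1 TMT control against 4 (an unadjusted p under 0.05 in 96 genes upward and 595 downward). Leaving out 1 library gave 569 to 2484, the lowest counts without T4 (569), T3 (603), T2 (752), A1 (917) and A4 (1068). The 73 calls within YJA and the 445 between code series within the TMT controls came from the fit of all 23 libraries, and 0 from the other fits of these contrasts, the GC and length correction, which was added after seeing the data, included. The odorant receptor share of counts differed by -0.211 to -0.299 percentage points with 1 library left out (exact permutation p 0.0286 to 0.0536), by -0.0699 within YJA (exact p = 0.667) and by -0.299 within litter numbers (sign-flip p = 0.125, the smallest that 4 pairs allow). The odorant receptors detected at equal depth differed by -230 within YJA (exact p = 0.667) and by -493 to -406 with 1 library left out. Of 1541 values of single genes under these alternatives, 1259 kept direction and call, 277 lost the call, 3 gained it and 2 reversed, both with GC and length corrected: C1qb (-0.45) and Cox4i1 (-0.14). Litter numbers did not pair the libraries, since deviations of same-numbered controls correlated at -0.233, -0.102, -0.07 and -0.02. Low counts in the TMT controls limit single receptors, and a count of 0 allows up to 3.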
